A study of Homo sapiens with 8 samples.

Results

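Solute carriers are membrane proteins that move sugars, amino acids, ions, metals, vitamins and drugs across the plasma membrane or the membranes of organelles. They are named by family (SLC) and member (A and a number). In absorptive epithelia of the gut they stand in the apical membrane, where nutrients enter, or in the basolateral membrane, where they leave towards the blood. Many of them are driven by the sodium, proton or chloride gradients that ion pumps and other carriers maintain. HNF4A is a nuclear receptor and transcription factor of liver and intestinal epithelium, where carriers of absorbed nutrients are among the genes it is known to control.

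The genes described here are those whose symbol in the RNA-seq table has the form SLC, number, A, number, without the families SLC3, SLC7, SLC25 and SLC38, and whose mean over the 4 libraries was at least 10 normalized counts. Of 30755 symbols in the table, 303 had this form and 233 remained without the 4 families. Of these, 157 reached the mean, from 40 families, and are the members. The other 76 lay below it, 1 of them listed at 0 in every library, and were not tested. The rule uses no measured value other than this mean, but the families were chosen with earlier results of these data known. Among the members just inside it was SLC30A2 with a mean of 11.7 normalized counts, and just outside it lay SLC1A2 with 9.31. Carriers named with another letter, such as most of the SLC35 nucleotide sugar carriers, are not members. Of the 157 symbols, 155 are current in RefSeq, and SLC22A18 and SLC22A20 are older names.

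All 4 RNA-seq libraries came from ESO26, an established line from an adenocarcinoma of the oesophagus grown in serum-supplemented RPMI medium. Control libraries 1 and 2 are labelled as control, and siHNF4A libraries 1 and 2 as HNF4A knockdown, in which a small interfering RNA (siRNA) lowers the HNF4A mRNA. The labels give neither the siRNA sequence, nor the nature of the control treatment, nor the time after transfection, and a single cell line was used. Nothing states that libraries of a group came from separate cultures, so p-values measure the spread between these libraries, which may be technical.

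HNF4A itself had 4129 and 3937 normalized counts in the controls, against 1140 and 932 in the knockdown, 25.7% of the control mean. Library sums lay between 17912507 and 18613685 normalized counts, the sequencing depth is unknown, and the number of genes at 0 was 5479 and 5640 in the controls but 4260 and 4362 after knockdown. Columnar epithelial markers such as EPCAM, KRT8 and CDH17 summed to between 94007 and 102106 normalized counts per library over 7 genes. Within this list EPCAM, KRT8 and KRT18 were lower in the knockdown, with log2 fold changes of -0.29, -0.43 and -0.51 (adjusted p = 0.0029, 0.0016 and 0.00072 in limma). KRT19 and CDH17 were higher, with 0.22 and 0.20 (adjusted p = 0.019 and 0.026). The summed markers of other cell types that the table holds were between 15.02 and 36.2 for squamous epithelium, 132 and 238 for fibroblasts, 77.1 and 133 for immune cells and 15.2 and 64.0 for endothelium. KRT13 was listed at 0 in both knockdown libraries and PTPRC in control 1. VWF, an endothelial marker, had 8.55 and 6.68 in the controls, against 47.5 and 36.4 in the knockdown (log2 fold change 2.31, adjusted p = 0.0054 in limma). CDH5, the other endothelial marker, was not called (log2 fold change 0.17, adjusted p = 0.86 in limma). The squamous keratin KRT14 had 0.64 and 2.29, against 12.2 and 25.7 (log2 fold change 3.02, adjusted p = 0.018 in limma). VWF and KRT14 reached the mean of 10 only through the knockdown libraries. KRT5 had means of 22.4 and 8.33 and was not called. The part of these marker differences in the results below was not tested.

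The first question was how many solute carriers changed when HNF4A was lowered. Between the knockdown and control libraries 29 of the 157 members were called, meaning an adjusted p under 0.05 in limma over all 15577 genes tested, which is 18.5% of the members against 14.1% of all genes. Of these, 18 were lower (8.11% of all genes tested were called lower) and 11 higher (6.02% of all genes). The share of members called was thus near that of all genes. The median log2 fold change of the members, knockdown minus control, was -0.068 (-0.10 to -0.032 with 1 library left out), against -0.0073 for all genes tested, and 92 members had a negative and 65 a positive value. In 93 members (59.2%) both knockdown libraries lay on the same side of both controls, against 57% of all genes tested. The smallest p of an exact permutation test is 0.333 with 2 libraries against 2, and limma therefore draws on the spread of other genes. After quantile normalization the calls split into 15 higher and 16 lower, in place of 11 and 18. Without siHNF4A library 1 the number called was 13, and without siHNF4A library 2 it was 12. With no filter on low values it was 6, and without the trend between variance and level limma called 0 members, although 46 had an unadjusted p under 0.05.

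The called members differed in size of change and in how firmly they were called. Their median absolute log2 fold change was 0.51, against 0.45 for all called genes. A change of at least 0.5 was seen in 15 called members, and 5.99% of all genes tested were called with such a change. The call of SLC10A3, SLC12A2, SLC16A1, SLC20A1, SLC2A1, SLC46A1, SLC46A3 and SLC5A6 held in each of the 4 fits that left out 1 library, and the other 21 calls were lost in at least 1 of these fits. Calls were more frequent at higher levels: 5 of 48 members with a mean from 10 to 100 normalized counts, 11 of 69 from 100 to 1000 and 13 of 40 from 1000 upwards. The shares for all genes tested in these ranges were 3.73%, 13.2% and 26.2%.

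**Figure D1:**
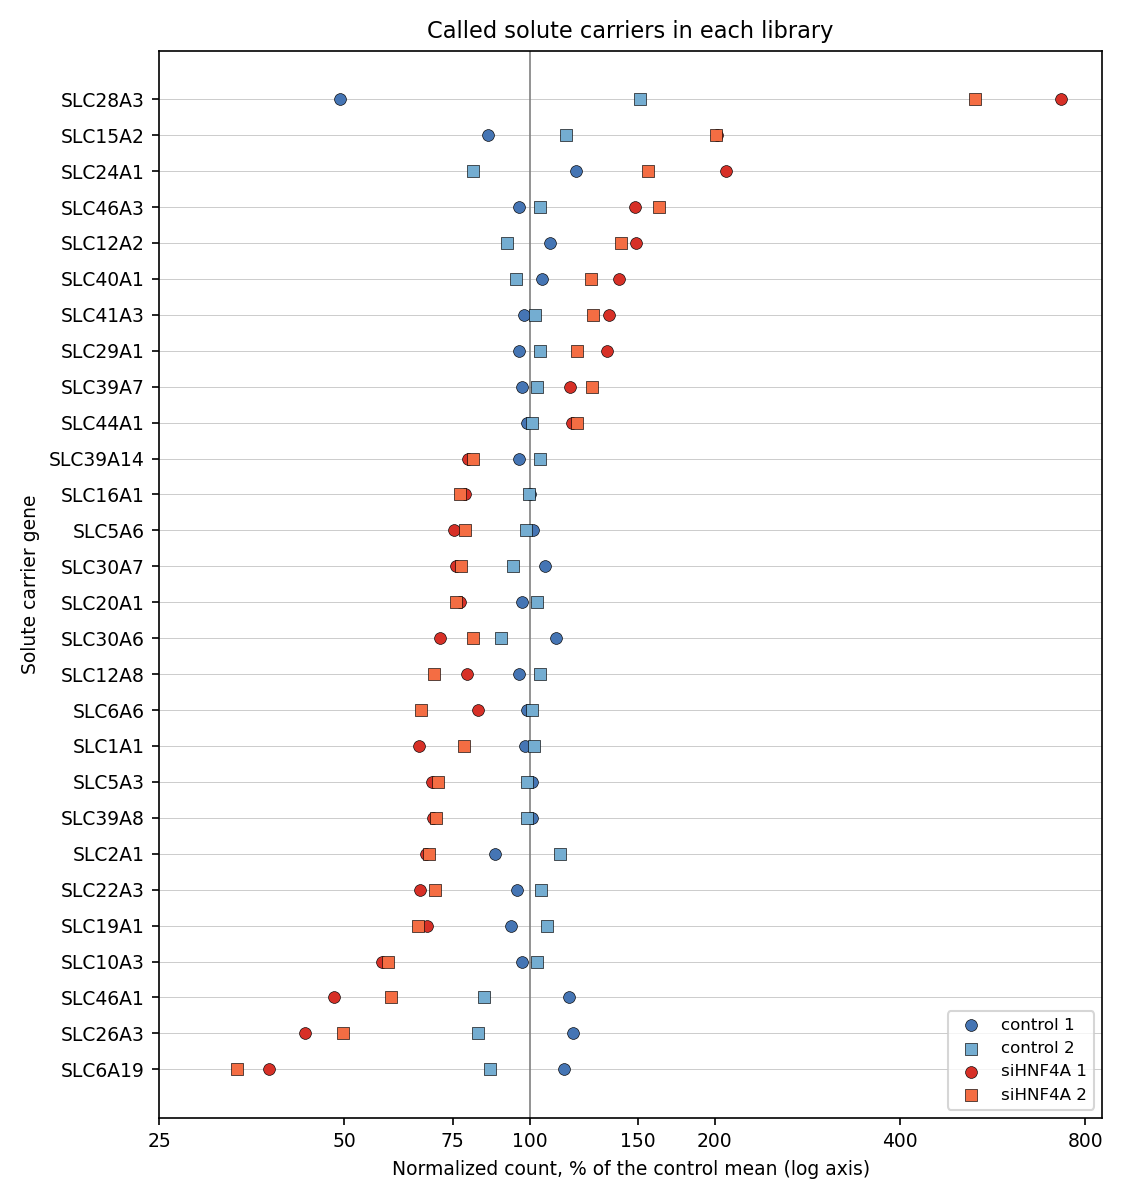
Normalized count of each called solute carrier in each library, as a percentage of the gene's control mean on a log axis, with circles for replicate 1 and squares for replicate 2 of the control (blue) and knockdown (red and orange) libraries. In the 28 called genes drawn here both knockdown libraries lie on the same side of both controls, from 35.6% of the control mean in SLC6A19 to 630% in SLC28A3 (means of the knockdown libraries). Such separation was seen in 57% of all genes tested, and a call favours it, so it adds no support to the calls.

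Carriers of the intestinal and hepatic epithelium came from a list written with earlier results of these data known, and 24 of its genes are members. Of these 24, 4 were called lower and 1 higher, and 19 did not pass the test. The share called was 20.8%, against 14.1% of all genes tested (8.11% lower and 6.02% higher). Their median log2 fold change was -0.19, with 17 of 24 below 0, against -0.0073 for all genes tested.

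SLC26A3, the apical exchanger of chloride for bicarbonate in the intestine, had 97.7 and 68.5 normalized counts in the controls, against 35.9 and 41.4 in the knockdown. Both knockdown values lay below both controls, and in normalized counts the controls lay farther from each other than control 2 from the higher knockdown value. The log2 fold change was -1.07 (standard error 0.27, adjusted p = 0.030 in limma), and the call was lost without control library 1, where the log2 fold change was -0.81, and without either knockdown library.

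The upstream sequence of SLC26A3 is shown because among the members with a promoter window it was the 1 that held an HNF4 motif core searched here. The cores were CAAAGTCCA and CAAAGGTCA, searched on both strands in RefSeq windows from 250 bases before to 50 after each gene start (GRCh38.p14). Windows were at hand for 125 of the 157 members (190 windows). CAAAGTCCA was in 0 of these 190 and in 0.384% of all 35116 windows, and CAAAGGTCA in 1 of the 190 (0.526%) and in 0.407% of all windows. No window of a member held both. Among the 32 windows of the 23 called members with a window, the match in SLC26A3 was the 1 found. The 250 bases before the start of SLC26A3, on the minus strand at chr7:107803224-107803473 of GRCh38.p14, follow, with the matching core in capitals.
SLC26A3: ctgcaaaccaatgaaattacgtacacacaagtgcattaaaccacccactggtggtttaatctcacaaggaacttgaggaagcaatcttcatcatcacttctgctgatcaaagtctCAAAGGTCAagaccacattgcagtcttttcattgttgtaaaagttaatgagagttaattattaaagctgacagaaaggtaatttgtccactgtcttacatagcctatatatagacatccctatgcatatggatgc
The core reads in the direction of the gene and spans bases 135 to 127 before the start. A match describes letters in this window and does not show binding. The deposited peak lists use hg19 and were not assigned to genes, since no annotation of that build was used here.

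SLC6A19, the apical carrier of neutral amino acids in intestine and kidney, had 37.3 and 28.3 normalized counts in the controls, against 12.4 and 11.0 in the knockdown. Its groups did not overlap, with the knockdown at 35.6% of the control mean. This is a log2 fold change of -1.41 (standard error 0.39, adjusted p = 0.039 in limma). At this low level the call held in 1 of the 4 fits that left out 1 library, the one without control library 2. SLC46A1, the proton-coupled carrier that takes up folate in the duodenum, had 939 and 684 in the controls, against 390 and 484 in the knockdown, a log2 fold change of -0.88 (standard error 0.16, adjusted p = 0.0060 in limma). Without 1 library the value lay between -1.11 and -0.65. SLC46A1 overlaps SARM1 in RefSeq. No source used here says whether reads were counted by strand, so the values of overlapping genes are uncertain. This holds for 20 of the 29 called members, also where the overlap is not named, such as SLC5A6 with ATRAID, SLC30A7 with DPH5 and SLC6A6 with GRIP2, and for ATP1B1, FTH1, MTF1, MFSD8, SPNS2 and SLCO4A1 among the other genes below.

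SLC16A1, the monocarboxylate carrier MCT1 of lactate and ketone bodies, had closely agreeing replicates, 3586 and 3567 in the controls, against 2809 and 2761 in the knockdown. It fell by 0.36 on the log2 scale (standard error 0.062, adjusted p = 0.0049 in limma). SLC40A1, the iron exporter ferroportin, was the 1 member of the list called higher, with 397 and 361 in the controls, against 530 and 477 in the knockdown (log2 fold change 0.41, adjusted p = 0.045 in limma). That call was lost without control library 2 and without either knockdown library.

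The remaining 19 carriers of the list were not called. SLC5A1, the intestinal sodium-glucose carrier, had 675 and 651 normalized counts in the controls, against 732 and 615 in the knockdown, with a 95% interval of the log2 fold change from -0.23 to 0.26. SLC37A4, the glucose-6-phosphate carrier of the endoplasmic reticulum, had an interval from -0.13 to 0.24. SLC26A6, another chloride-bicarbonate exchanger, had 726 and 564 in the controls, against 881 and 827 in the knockdown, just short of the threshold (log2 fold change 0.42, adjusted p = 0.051 in limma). It was called without control library 1 (0.60, adjusted p = 0.0015) and had 0.23 without control library 2 (adjusted p = 0.23). SLC5A9 had 130 and 61.6 in the controls, against 47.8 and 43.9 in the knockdown, so that control 1 stood apart (log2 fold change -0.95, adjusted p = 0.090 in limma). It had -0.42 without control library 1 (adjusted p = 0.45) and was called without control library 2 (-1.49, adjusted p = 0.0021). SLC22A18 (log2 fold change -0.31, adjusted p = 0.054) and SLC27A2, a fatty acid carrier and acyl-CoA synthetase (-0.31, adjusted p = 0.083), also missed it.

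The peptide carrier SLC15A1 had a log2 fold change of 0.41 with a 95% interval from -0.036 to 0.85. The sodium-proton exchangers SLC9A2 and SLC9A3 had -0.25 and -0.30, and the amino acid carrier SLC6A20 had -0.10, none of them called. With 1 library left out SLC9A2 ran from -0.41 to -0.10 and SLC9A3 from -0.49 to -0.12. For SLC2A5, the fructose carrier, the value of 30.8 in control 1 stood against 3.90 in control 2 and 11.0 and 7.98 in the knockdown, and the interval of its log2 fold change ran from -2.02 to 1.49. The zinc carriers SLC39A4 and SLC39A5 had -0.12 and -0.57, SLC2A9 had -0.15, SLC27A4 -0.079 (-0.15 to -0.0076 with 1 library left out), SLC27A5 0.43 (0.15 to 0.72 likewise), SLC17A4 -0.23 and SLC28A1 -0.059, and none was called.

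**Figure D2:**
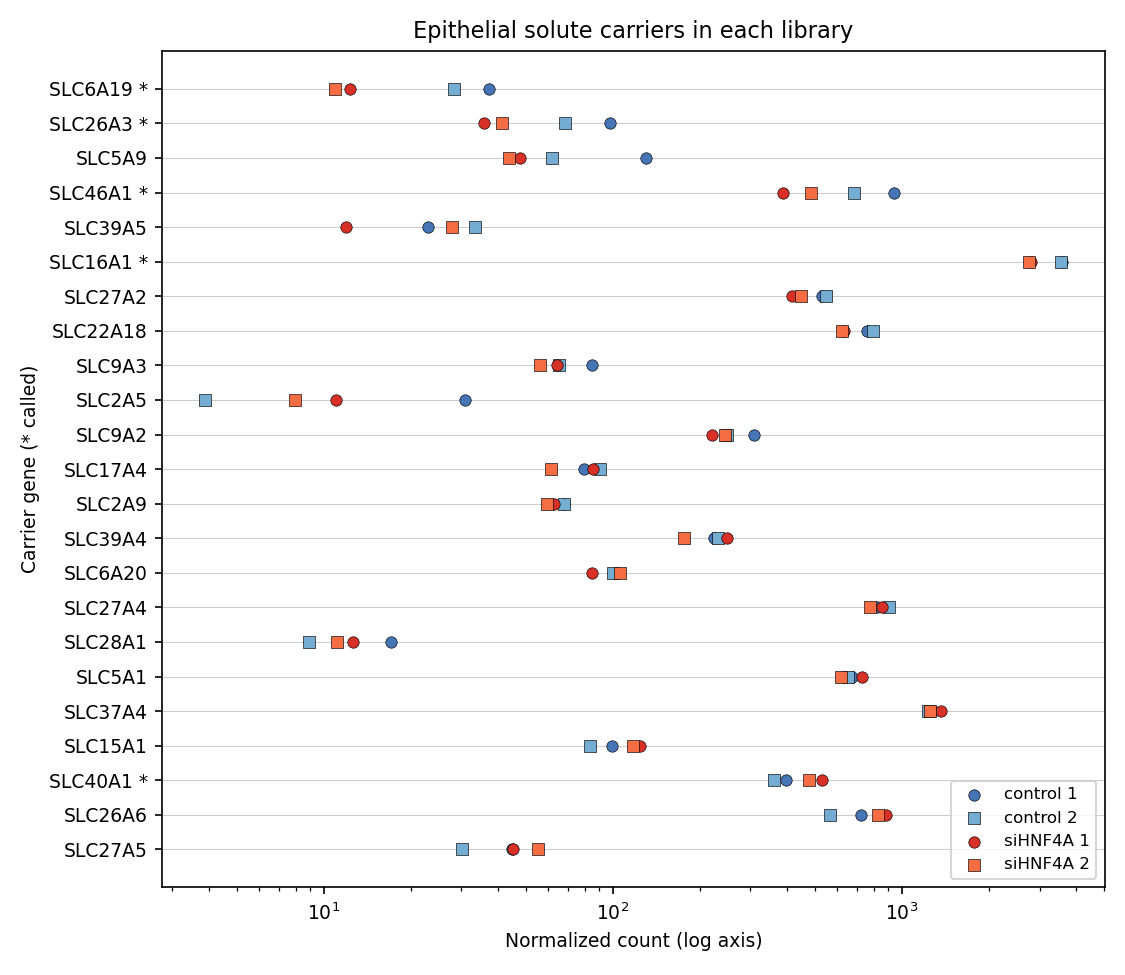
Normalized counts (log axis) in each library for 23 of the 24 members on the list of epithelial carriers, ordered by log2 fold change, with control libraries in blue and knockdown libraries in red and orange and called genes marked by an asterisk. The groups are apart in SLC6A19, SLC26A3, SLC5A9 and SLC46A1 at the lower end, and in 14 of the 24 members (58.3%), against 57% of all genes tested. In SLC5A9 and SLC2A5, 1 control value lies far from the other.

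Members were then grouped by what their family transports. In the classes of more than 1 member the share called ran from 10.5% of 19 sugar and polyol carriers and 11.5% of 26 carriers of protons, bicarbonate and chloride to 25% of 28 metal carriers and 40% of 5 calcium and phosphate carriers, against 14.1% of all genes tested. No class had all its called members in 1 direction other than the sugar carriers (2 lower), the organic ion carriers (2 lower) and the carriers of nucleosides and nucleotide sugars (2 higher). Of the last 2, SLC28A3 reached the mean of 10 only through the knockdown libraries (control mean 3.86), so its direction was favoured by the filter. Class medians of the log2 fold change lay between -0.24, for carriers of amino acids, peptides and neurotransmitters, and 0.057, for SLC17A5, which is the 1 member outside the other classes and was not called.

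**Figure D3:**
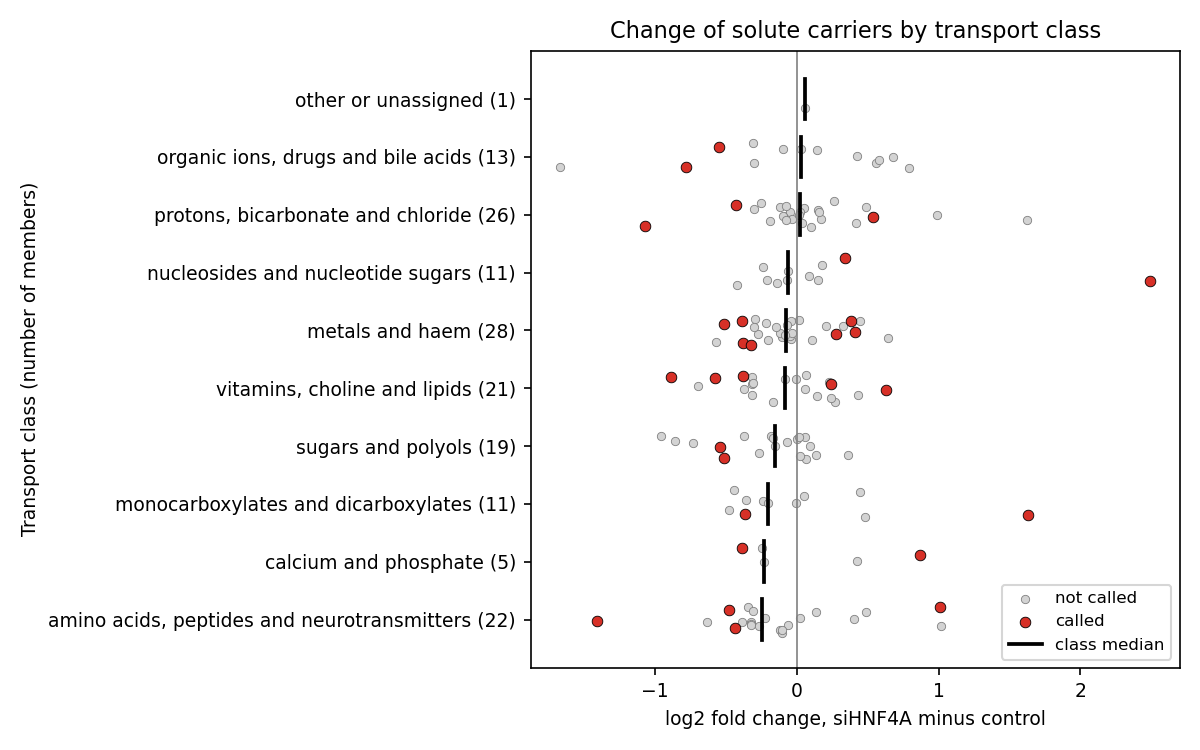
Log2 fold change (knockdown minus control) of the 157 solute carriers by transport class, with 1 point per gene, called genes in red, others in grey and the class median as a black bar, points spread vertically at random. Called genes lie on both sides of 0 in 6 of the 10 classes, and no class median lies outside -0.24 to 0.057.

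Among carriers of vitamins, choline and lipids, 3 of 21 were called lower, 2 higher, and 16 were not called. The share called was 23.8%, beside 14.1% of all genes tested (8.11% lower and 6.02% higher). Both folate carriers fell. SLC19A1, the reduced folate carrier of most tissues, had 535 and 611 in the controls, against 390 and 378 in the knockdown, a log2 fold change of -0.57 (standard error 0.11, adjusted p = 0.0097 in limma), and the intestinal folate carrier SLC46A1 fell as given above. SLC19A1 overlaps COL18A1 in RefSeq, and its call was lost without siHNF4A library 2. SLC5A6, the sodium-dependent carrier of biotin and pantothenate, fell from 2680 and 2609 to 1991 and 2080, 77.0% of the control mean (adjusted p = 0.0061 in limma). SLC46A3, a lysosomal relative of the folate carrier, moved the other way, from 548 and 592 to 845 and 925. Its log2 fold change was 0.63 (standard error 0.099, adjusted p = 0.0032 in limma). SLC44A1, a choline carrier, rose by a small amount, from 3213 and 3269 to 3804 and 3872 (log2 fold change 0.24, adjusted p = 0.026 in limma), a call that held only without control library 2 among the fits that left out 1 library.

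Metal carriers had 4 called lower, 3 called higher and 21 not called among 28. This is a share of 25%, beside 14.1% of all genes tested (8.11% lower and 6.02% higher). The zinc carriers fall into the SLC30 family, which moves zinc out of the cytosol, and the SLC39 family, which moves it in. Of 7 members of SLC30, 2 were called, both lower, and of 12 members of SLC39, 2 were called lower and 1 higher, beside 14.1% of all genes tested. SLC30A6 and SLC30A7, which load zinc into the secretory pathway, fell to 76.2% and 76.7% of the control mean. SLC30A6 had 1864 and 1515 in the controls, against 1210 and 1365 in the knockdown (log2 fold change -0.39, adjusted p = 0.040 in limma), and it was not called after quantile normalization or after rescaling by median ratios. SLC30A7 had 1670 and 1483 against 1199 and 1219 (adjusted p = 0.016 in limma). The calls of SLC30A6 and SLC30A7 were lost without control library 1, where SLC30A6 had a log2 fold change of -0.24, and without either knockdown library.

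In the SLC39 family SLC39A8, which carries zinc and manganese at the cell surface, had near-identical replicates, 491 and 483 in the controls, against 340 and 343 in the knockdown. Its log2 fold change was -0.51 (standard error 0.11, adjusted p = 0.014 in limma). Its close relative SLC39A14, outside the rule for named genes, fell from 2743 and 2962 to 2264 and 2305, a log2 fold change of -0.32 (adjusted p = 0.014 in limma). SLC39A7, which releases zinc from the endoplasmic reticulum, rose from 2822 and 2994 to 3388 and 3670 (log2 fold change 0.28, adjusted p = 0.026 in limma). SLC39A1 had 6782 and 7494 in the controls, against 6985 and 6840 in the knockdown, with a 95% interval of the log2 fold change from -0.18 to 0.095. Each of the 5 calls among the zinc carriers was lost in at least 2 of the 4 fits that left out 1 library, namely SLC39A7 without control library 1 or siHNF4A library 2, SLC39A8 without either knockdown library, and SLC39A14 without control library 2 or either knockdown library.

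**Figure D4:**
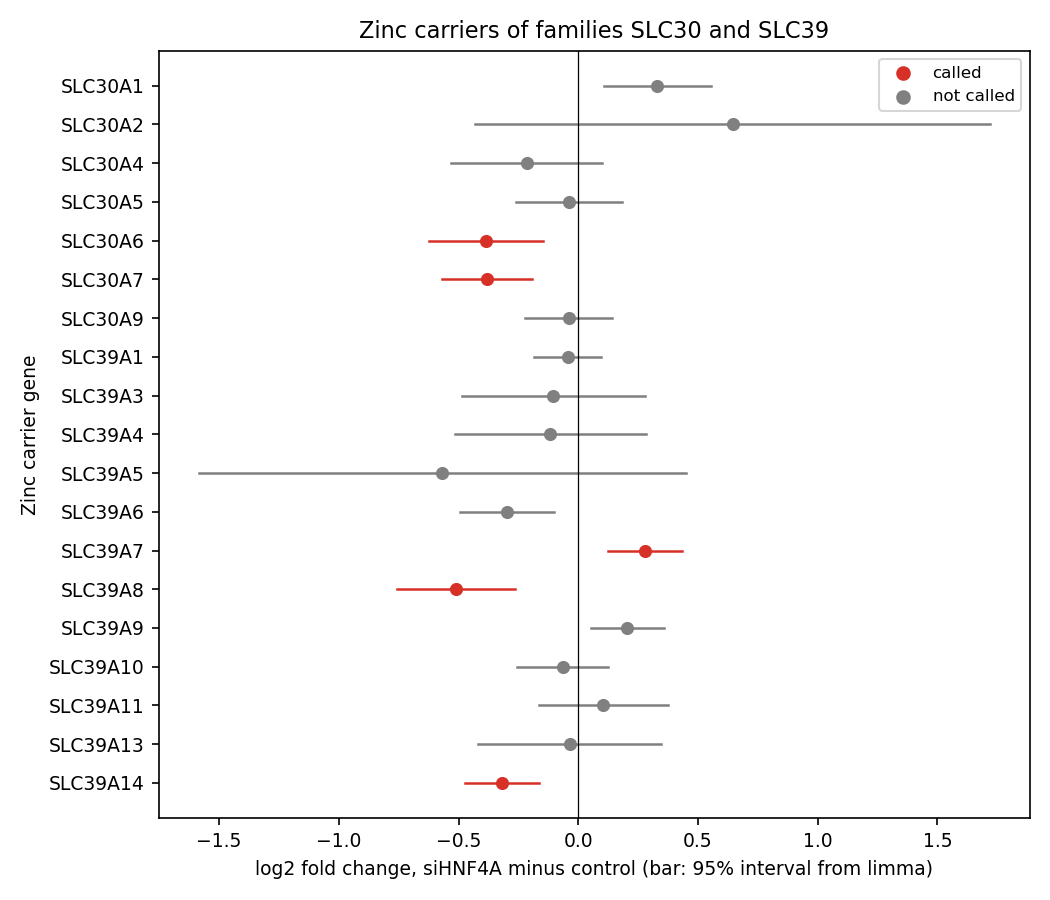
Log2 fold change (knockdown minus control) of the 19 zinc carriers of families SLC30 and SLC39 with the 95% interval from limma as a bar, called genes in red. SLC30A6, SLC30A7, SLC39A8 and SLC39A14 lie below 0 and SLC39A7 above it, while the intervals of SLC30A2 and SLC39A5 are the widest.

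SLC41A3, of a family of magnesium carriers, rose from 792 and 824 to 1086 and 1026 normalized counts (log2 fold change 0.38, adjusted p = 0.017 in limma), a call lost without either knockdown library. Genes that respond to metals or handle iron came from a list of 16 symbols, of which 11 were tested. Of these 2 were called, both higher, which is 18.2% against 14.1% of all genes tested (6.02% higher). FTH1, the heavy chain of the iron store ferritin, rose from 56571 and 65065 to 75753 and 78894 (log2 fold change 0.35, adjusted p = 0.0059 in limma). MTF1, the metal-responsive transcription factor, had 803 and 1129 in the controls, against 1442 and 1288 in the knockdown. It rose by 0.52 on the log2 scale (adjusted p = 0.037 in limma), and its controls lay farther from each other than control 2 from the lower knockdown value. The metallothionein MT2A, a zinc-binding protein, had 40.7 and 49.4 in the controls, against 24.3 and 21.7 in the knockdown and was not called (adjusted p = 0.079), and IREB2, an iron sensor, had a log2 fold change of 0.13 (adjusted p = 0.15).

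Of 26 carriers of protons, bicarbonate and chloride, 1 was called higher, 2 lower and 23 were not called. This is a share of 11.5%, beside 14.1% of all genes tested (6.02% higher and 8.11% lower). SLC12A2, the basolateral sodium-potassium-chloride cotransporter NKCC1 that supplies chloride for secretion, had 7619 and 6492 normalized counts in the controls, against 10503 and 9923 in the knockdown. Both knockdown libraries lay well above both controls. The log2 fold change was 0.54 (standard error 0.075, adjusted p = 0.0019 in limma), and it lay between 0.42 and 0.65 when 1 library was left out. SLC12A8, of the same family, fell from 474 and 512 to 389 and 345 (log2 fold change -0.43, adjusted p = 0.040 in limma), a call not made after quantile normalization, without control library 2 or without either knockdown library. SLC4A2, the anion exchanger AE2, is outside the rule for named genes. It was not called and had a 95% interval of the log2 fold change from -0.11 to 0.15.

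Ion pumps and accessory proteins that drive or hold these carriers came from a list of 25 symbols, of which 18 were tested. Of these, 2 were called higher, 1 lower and 15 were not called, so that 16.7% were called, against 14.1% of all genes tested. ATP1B1, the beta subunit of the sodium pump, rose from 3768 and 3675 to 5061 and 5017 (log2 fold change 0.44, adjusted p = 0.0015 in limma). WNK4, a kinase that regulates cation-chloride cotransporters, rose from 82.4 and 101 to 156 and 145 (log2 fold change 0.71, adjusted p = 0.037 in limma). EMB, a chaperone of monocarboxylate carriers, had a log2 fold change of -0.30 and was not called (adjusted p = 0.056). Of 20 tested carriers with other kinds of name, such as the SLCO and MFSD genes, 1 (5%) was called, against 14.1% of all genes tested. This was MFSD8, which was lower, with 435 and 510 in the controls, against 299 and 369 in the knockdown (log2 fold change -0.50, adjusted p = 0.041 in limma). SPNS2, SLCO4A1 and MFSD1 had log2 fold changes of 0.36, -0.28 and 0.27 and were not called (adjusted p = 0.0504, 0.068 and 0.075).

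Among 22 carriers of amino acids, peptides and neurotransmitters, 3 were called lower, 1 higher and 18 were not called. This is a share of 18.2%, beside 14.1% of all genes tested (8.11% lower and 6.02% higher). SLC1A1, a carrier of glutamate, aspartate and cysteine, had 1369 and 1420 in the controls, against 922 and 1092 in the knockdown (log2 fold change -0.47, adjusted p = 0.011 in limma). SLC6A6, the taurine carrier, had 1404 and 1428 against 1166 and 944 (log2 fold change -0.43, adjusted p = 0.022), so that the controls lay close together and the knockdown libraries apart. The call of SLC1A1 was lost without siHNF4A library 1 and that of SLC6A6 without siHNF4A library 2, where its log2 fold change was -0.28. The peptide carrier SLC15A2 rose from 54.0 and 72.3 to 127 and 127, which is 201% of the control mean (adjusted p = 0.015 in limma), and this call was lost without either knockdown library. SLC1A5, the glutamine carrier ASCT2, had 2915 and 3243 in the controls, against 2901 and 2810 in the knockdown, with a 95% interval from -0.27 to 0.054.

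Sugar and polyol carriers had 2 of 19 called (10.5%, beside 14.1% of all genes tested and 8.11% called lower), both lower. SLC2A1, the glucose carrier GLUT1, had 3350 and 4263 in the controls, against 2584 and 2616 in the knockdown. The controls differed more from each other than the knockdown libraries did, and both lay above them. The log2 fold change was -0.54 (standard error 0.10, adjusted p = 0.0070 in limma), and it lay between -0.71 and -0.37 with 1 library left out. SLC5A3, which carries myo-inositol, fell from 561 and 550 to 385 and 395 (log2 fold change -0.51, adjusted p = 0.012 in limma). SLC5A3 overlaps MRPS6 in RefSeq, and its call was lost without either knockdown library.

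Of 13 carriers of organic ions, drugs and bile acids, 2 were called, both lower, and 11 were not called, a share of 15.4% beside the same 14.1% and 8.11%. SLC10A3, a member of the bile acid carrier family on chromosome X, had 609 and 645 in the controls, against 360 and 369 in the knockdown, 58.2% of the control mean. Replicates lay close together and the groups far apart. Its log2 fold change of -0.78 (standard error 0.11) had the smallest adjusted p of all members, 0.0016 in limma. SLC22A3, the organic cation carrier OCT3, fell from 275 and 301 to 191 and 202 (log2 fold change -0.55, adjusted p = 0.030 in limma), a call that held in 1 of the 4 fits that left out 1 library, the one without control library 1.

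Carriers of phosphate and calcium numbered 5, of which 1 was called lower and 1 higher. This is a share of 40% in a small class, beside 14.1% of all genes tested (8.11% lower and 6.02% higher). SLC20A1, a sodium-phosphate carrier of most cells, fell from 2278 and 2415 to 1810 and 1782 (log2 fold change -0.39, adjusted p = 0.0066 in limma). SLC24A1, a sodium, calcium and potassium exchanger, rose from 136 and 92.6 to 238 and 178 (log2 fold change 0.87, adjusted p = 0.031), with libraries of each group well apart from each other. SLC24A1 overlaps DENND4A in RefSeq, and its call was lost without control library 2 and without siHNF4A library 1.

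Carriers of nucleosides and nucleotide sugars had 2 of 11 called (18.2%, beside 14.1% of all genes tested and 6.02% called higher), both higher and both carriers of nucleosides. SLC29A1, the equilibrative nucleoside carrier ENT1, rose from 2876 and 3110 to 4004 and 3569 (log2 fold change 0.34, adjusted p = 0.016 in limma), a call lost without siHNF4A library 1. SLC28A3, the concentrative nucleoside carrier CNT3, had 1.90 and 5.83 normalized counts in the controls, against 28.2 and 20.4 in the knockdown. Its log2 fold change was 2.49 (standard error 0.58, adjusted p = 0.020 in limma), and 1.31 with a pseudocount of 10. It reached the mean of 10 only through the knockdown libraries, its control mean being 3.86, so the choice of members favoured a rise. In the monocarboxylate family 1 of 10 members was called lower, SLC16A1, and 1 higher. That is 20% called, beside 14.1% of all genes tested (8.11% lower and 6.02% higher). SLC28A3 has a low mean and was named outside the rule because it was called, and its call was lost without either knockdown library. Its rise goes with the lower number of genes listed at 0 in the knockdown libraries, and the part of that difference in it was not tested.

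The other 128 members were not called, and 32 of them had an unadjusted p under 0.05 in limma. The 95% interval of the log2 fold change lay within -0.5 to 0.5 in 56 of the 128. For the other 72 the interval reached beyond 0.5 in at least 1 direction, so that a change of that size lay within it.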

How the data were processed

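The titles place 2 RNA-seq libraries of ESO26 cells in the control group and 2 in the siHNF4A group. The authors deposited 1 table of normalized counts per gene symbol, a signal value with decimals. The submitters' processing notes name hg19, Bowtie, Bowtie2, Trim Galore, Picard and MACS2 without saying which served the RNA-seq. The counting program and the normalization are not given in the sources used here. Whole reads could not be recovered, so no count model was used.

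Log2(normalized count + 1) was fitted with limma 3.58.1 in R 4.3.3 (lmFit, eBayes with an intensity trend, no block) for genes with a mean of at least 10, with Benjamini-Hochberg adjustment over all of them. Fold changes on this scale understate changes of low genes. The fit was tested on simulated data. The members and lists were chosen with earlier results of these data known. Named genes are the 15 largest falls and 15 largest rises among called members with a mean of at least 50 and groups that do not overlap, the listed epithelial carriers, the gene with the highest mean in each class, the gene with the smallest p in a class without another, the genes nearest the threshold, and up to 4 genes of each other list. Overlaps, current symbols and promoters come from RefSeq (GRCh38.p14). Alternatives were other pseudocounts (0.5, 10), filters, scalings, variance models, a replicate block and leaving out each library. The 4C and ChIP-seq data were not analysed here. Single values of a few genes are not reported here, and these genes stay in the counts.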

Additional observations from a re-analysis of the deposited data

How the results depend on the processing

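Of the 157 members 29 were called, and between 28 and 34 were called with either other pseudocount, the filter at 50 (127 members tested), either rescaling, the robust prior and the replicate block. Dropping the filter, with every gene above 0 somewhere tested (30247 genes), left 6 calls, 2 higher and 4 lower, all among the 29: SLC10A3, SLC12A2, SLC16A1, SLC20A1, SLC46A3 and SLC5A6. Without the variance trend 0 members and 0 of all genes were called in limma, although 46 members had an unadjusted p under 0.05. A further minimum of 0.5 on the size of the log2 fold change left 15, 6 higher and 9 lower. The cause of these losses was not tested. In the fits without 1 library the number called lay between 12 and 32, with 4 to 15 higher and 8 to 17 lower, and the member median lay between -0.10 and -0.032. With a group of 1 library, limma assumes that it varies like the other group. All 29 called members kept their direction in each alternative that was run.

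With the replicate number as a block 34 members were called, 14 higher and 20 lower, the 29 among them. SLC26A6 (adjusted p = 0.016 in limma) and SLC5A9 (adjusted p = 0.032) were called with the block. The deviations of same-numbered libraries from their group means had a Pearson correlation of -0.019 across 15577 genes, and no pairing was assumed. With all 4 libraries SLC26A6 was also called with a pseudocount of 10, the filter at 50, quantile normalization and the robust prior, and SLC22A18 with the filter at 50.

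Some uncalled values changed sign. SLC39A1 went to 0.0030 after quantile normalization. Over the fits without 1 library, log2 fold changes ran from -0.12 to 0.027 for SLC39A1, -0.50 to 0.38 for SLC28A1, -1.62 to 1.08 for SLC2A5, -0.11 to 0.14 for SLC5A1, -0.056 to 0.17 for SLC17A5, -0.0050 to 0.12 for SLC37A4, -1.14 to 0.0090 for SLC39A5, -0.26 to 0.053 for SLC6A20, -0.47 to 0.012 for SLC17A4 and -0.36 to 0.13 for SLC39A4. The sequencing depth is unknown, so low values carry no counting interval.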
